A study of Mus musculus with 9 samples.

Results

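The genes described here encode the mitochondrial ribosomal proteins (MRPs). They were chosen from the deposited raw count matrix as all protein-coding mouse genes whose symbol is Mrpl or Mrps followed by a number, with pseudogene symbols left out. This gave 78 of the 47643 genes listed, 49 of them named for the large subunit (Mrpl) and 29 for the small subunit (Mrps). Of these, 77 passed the filter on low counts, a median above 1 CPM (counts scaled to a common library size) over the libraries, as did 11560 genes in all. Mrpl53 was the 1 member left out and had 0 counts in every library. In the GENCODE M21 annotation, 88.0% of its exonic bases also belong to Gm42688 on the same strand, which had 9 to 30 counts per library.

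MRPs are made from nuclear genes on cytosolic ribosomes and imported into mitochondria, where they join ribosomal RNAs transcribed from mitochondrial DNA. The large subunit forms peptide bonds, the small subunit reads the messenger RNA, and together they translate the few mitochondrially encoded subunits of the oxidative phosphorylation complexes. Many MRPs have a bacterial counterpart and the others exist only in mitochondria. Transcription factors NRF1, GABPA and YY1 are known regulators of nuclear genes for mitochondrial proteins.

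RNA sequencing was performed on bone marrow-derived mast cells (BMMCs) from C57BL/6 mice, cultured for at least 4 weeks in medium conditioned by WEHI-3 cells. The 3 groups were cells without treatment (Control), cells given IgE and BSA (IgE+BSA), and cells given IgE, BSA and luteolin (IgE+BSA+Luteolin), with 3 libraries each. IgE and BSA stand for an antibody against DNP and the antigen DNP-BSA, which together cross-link the IgE receptor of mast cells. Luteolin, a plant flavone, was used at 10 µM for 24 h according to the labels, which describe no separate animals or cultures for the replicates. The study's descriptions of these libraries differ on whether luteolin was given before or after the antigen.

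All 10 mast cell marker genes examined, among them Kit, Fcer1a and Cpa3, were above 1 CPM in every library, whereas the T cell marker Cd3e was at 0 in all 9. Library totals ranged from 9515004 to 24605689 counts, the lowest being Control replicate 2, and 3 counts corresponded to 0.122 to 0.315 CPM, which covers counting error only. The Control libraries did not resemble each other. Neutrophil markers (5 genes, 1 of them above 1 CPM in every library) summed to 190 CPM in Control replicate 1 but to 5.64 and 6.96 CPM in the other two, against 125 to 136 CPM in IgE+BSA and 146 to 172 CPM in IgE+BSA+Luteolin. Mcpt8, a protease gene of basophils, was at 432 CPM in Control replicate 1 and at 21.8 and 18.7 CPM in Control replicates 2 and 3, and it ranged from 292 to 368 CPM in the other 6 libraries. The other basophil marker, Prss34, did not separate the Control libraries in this way, at 759, 650 and 610 CPM in Control and 513 to 661 CPM in the other 6 libraries. The mast cell markers differed between the Control libraries as well. They summed to 83400 CPM in Control replicate 1 and to 54300 to 54600 CPM in Control replicates 2 and 3. Singly they did not move together, as Mcpt4 was at 1750, 201 and 197 CPM in Control but Kit at 1750, 2300 and 2480 CPM. By the neutrophil markers and Mcpt8, Control replicates 2 and 3 stood apart from the other 7 libraries. Over all genes tested, Control replicate 1 lay farther from the mean of its own group (distance 203.7) than from that of IgE+BSA+Luteolin (133.1). Counts of members called against Control are therefore given with and without these libraries.

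Summed over members, the MRP genes took 0.169% to 0.258% of the counts of a library. The large subunit genes summed to 1736, 1087.6 and 1066.5 CPM in Control replicates 1, 2 and 3. The sums were 1271.8, 1325.5 and 1214.9 CPM in IgE+BSA, and 1576.1, 1549.8 and 1449.2 CPM in IgE+BSA+Luteolin. All 3 libraries with luteolin lay above all 3 with IgE+BSA, and Control replicate 1 lay above all 8 other libraries.

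The small subunit genes followed the same order, with 824, 534 and 526 CPM in Control. They summed to 632, 666 and 589 CPM in IgE+BSA and to 748, 741 and 700 CPM in IgE+BSA+Luteolin. With luteolin the mean sum was 1.20 times that of IgE+BSA for the large subunit (1525 ± 67.0 against 1271 ± 55.3 CPM, SD, n = 3 each) and 1.16 times for the small subunit (730 ± 26 against 629 ± 38.7 CPM, SD, n = 3 each). For either subunit the exact two-sided permutation test gave p = 0.1, the smallest value that 3 against 3 libraries allow. The ratio of large to small subunit sums stayed between 1.99 and 2.11 in all 9 libraries. It was 2.09 ± 0.0181 with luteolin and 2.02 ± 0.0373 in IgE+BSA (SD, n = 3 each), without overlap between the groups (2.070 to 2.106 against 1.990 to 2.063, exact permutation p = 0.1). Since RNA was measured in bulk and relative to all counts, less RNA per cell and fewer cells of a type cannot be told apart.

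**Figure D1:**
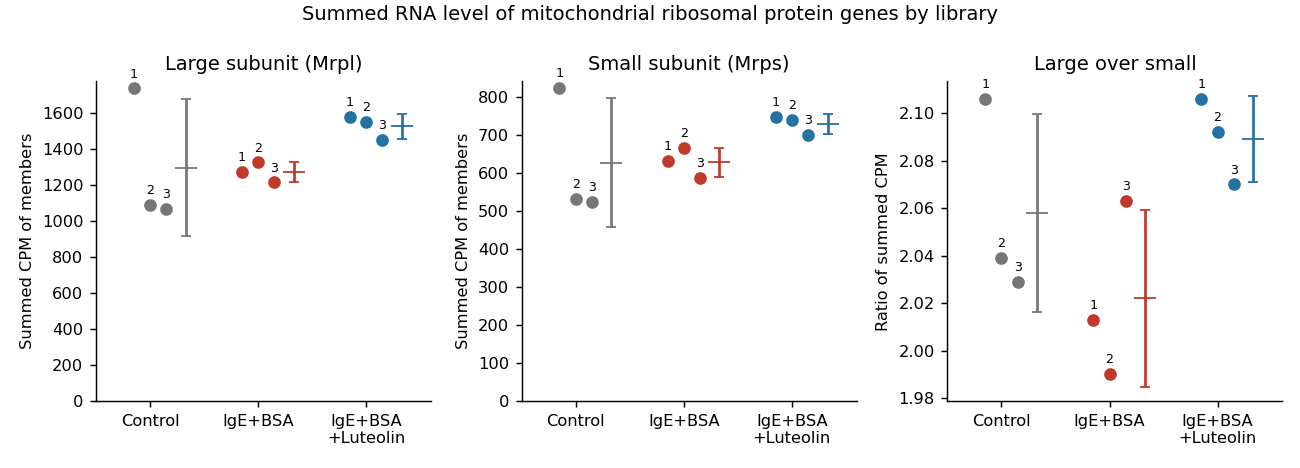
Summed CPM of the large and small subunit genes and their ratio (y axes) in each library by group (x axis). Numbered points are libraries, and bars give the mean ± SD of 3. The ratio axis does not start at 0. The 3 luteolin libraries lie above the 3 IgE+BSA libraries in each panel, and Control replicate 1 lies far above Control replicates 2 and 3 in both sums.

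Levels of single members were compared per kilobase of exon, averaged over the group means. They ranged from 2.32 to 38.4 CPM per kb in the large subunit, a span of 16.6-fold, and from 2.41 to 52.2 CPM per kb in the small subunit, a span of 21.7-fold. The medians were 10.8 and 7.70 CPM per kb. The most abundant large subunit members were Mrpl34 (38.4 CPM per kb), Mrpl54 (37.4) and Mrpl18 (32.3). The least abundant were Mrpl1 (2.48) and Mrpl47 (2.32). In IgE+BSA, Mrpl54 (34.9 ± 3.18 CPM per kb), Mrpl34 (33 ± 1.94) and Mrpl18 (31.6 ± 2.72) could not be ranked beyond their spread (SD, n = 3), nor could Mrpl1 (2.42 ± 0.445) and Mrpl47 (2.32 ± 0.171).

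In the small subunit, Mrps21, whose bacterial counterpart sits on the platform, was highest at 52.2 CPM per kb. Mrps23 followed at 27.7 and Mrps12, the decoding site protein, at 21.6, while Mrps34 and Mrps31 were lowest at 2.42 and 2.41. In IgE+BSA the top 3 were separated by more than their spread (44.3 ± 1.14, 24.7 ± 0.282 and 21 ± 0.787 CPM per kb, SD, n = 3), whereas Mrps34 (2.43 ± 0.250) and Mrps31 (2.26 ± 0.0954) were not, and Mrps10 (2.28) and Mrps35 (2.30) lay between them in that group. The order depended on the length used. With the longest transcript as the length, Mrpl20 (53.0 CPM per kb), Mrpl54 (51.1) and Mrpl24 (49.0) were the highest large subunit genes, above Mrpl34 (38.4) and Mrpl18 (37.1), and Mrps15 (28.3) came above Mrps12 (25.5) in the small subunit. Mrpl20, Mrpl24 and Mrps15 are named here after their values were seen. Of the exonic bases of Mrps34, 37.0% are shared with a gene on the same strand and 63.4% with genes on the opposite strand, so its level is uncertain. Opposite-strand genes also cover 24.2% of the exonic bases of Mrpl47 (Ndufb5, with 752 to 803 counts in IgE+BSA against 188 to 239 for Mrpl47), 13.1% of Mrpl12, 12.2% of Mrpl46, 11.2% of Mrpl14 (Tmem63b) and 10.1% of Mrpl18 (Tcp1, with 5381 to 6007 counts against 841 to 968). Opposite-strand genes, among them Rrnad1, cover 26.3% of Mrpl24, and a same-strand gene covers 23.2% of Mrps18c. Of the members tested, 9 large and 8 small subunit genes share 10% or more of their exonic bases with genes on 1 of the strands. Mrps25, with 69.8% on the opposite strand, is among them. The values of these members are uncertain to that extent, since the strand setting of the counting is not given in the sources used here.

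Under luteolin, many MRP genes rose by a small amount compared with IgE+BSA. Of the 48 large subunit genes tested, 32 rose (66.7%) and 0 fell, and of the 29 small subunit genes 13 rose (44.8%) and 1 fell. Among all 11560 genes tested, 18.1% rose and 21.9% fell. When all 9 libraries shared 1 estimate of the spread, 0 members rose (1.52% of all genes did) and Mrps18b still fell, with medians of 0.27 and 0.24. With offsets that remove each library's trend with gene length, 18 large and 8 small subunit genes rose (15.2% of all genes) and Mrps18b fell, with medians of 0.18 and 0.10. These calls rest on an adjusted p under 0.05 from edgeR's quasi-likelihood test with Benjamini-Hochberg adjustment over all genes tested. The median change was 0.27 (log2 scale) in the large subunit and 0.25 in the small subunit, about 1.21-fold and 1.19-fold, against 0.02 over all genes. The change was above 0 for 46 of 48 large and 25 of 29 small subunit genes, against 52.3% of all genes tested. The 3 luteolin libraries lay above the 3 IgE+BSA libraries without overlap for 31 large and 12 small subunit genes (64.6% and 41.4%), against 24.2% of all genes tested.

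**Figure D2:**
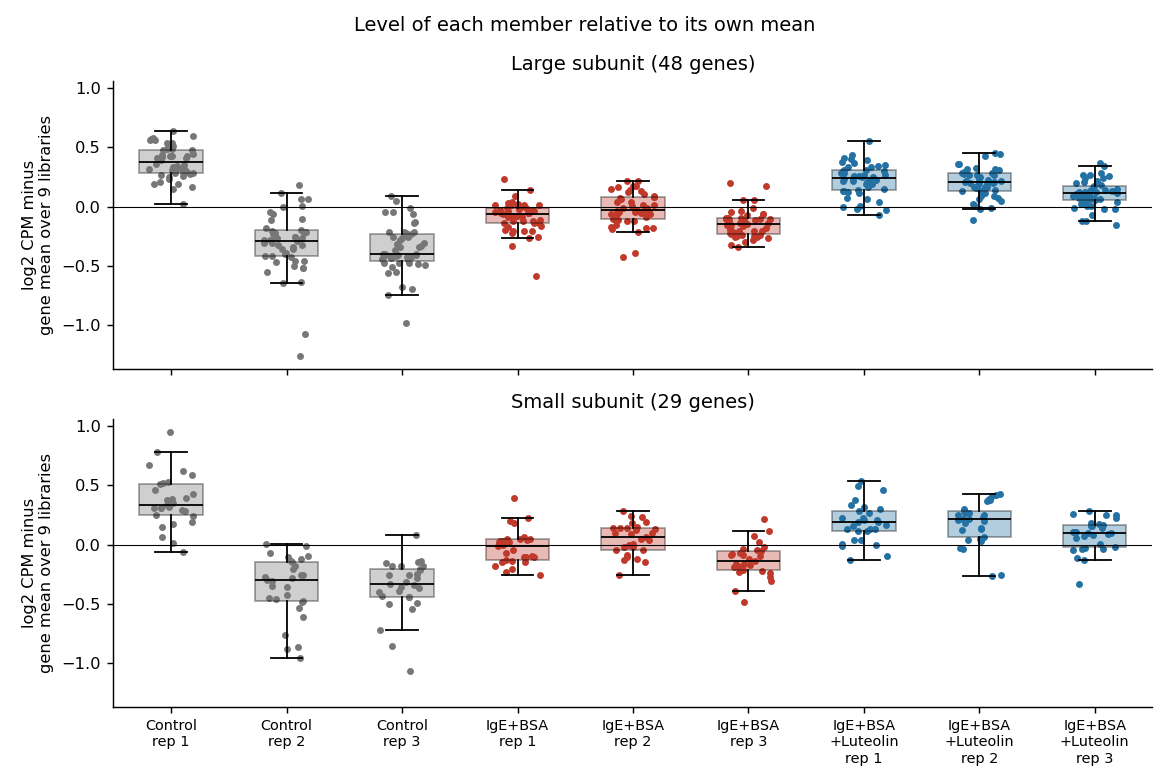
Level of each large (48) and small (29) subunit gene in each library, as log2 CPM minus the gene's mean over 9 libraries (y axis). Points are genes, boxes give the median and quartiles with whiskers to 1.5 times the interquartile range, and colours mark the groups. The luteolin libraries have their medians above 0 and Control replicates 2 and 3 below 0, while Control replicate 1 has the highest median of all 9.

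Among large subunit genes, Mrpl49, a mitochondria-specific protein (chr19:6053622-6057785 in GRCm38), changed most. It was at 12, 13.8 and 15.3 CPM in IgE+BSA and at 20.9, 22.5 and 22.8 CPM with luteolin. Luteolin libraries were higher without overlap, by 0.69 ± 0.107 (log2 fold change ± SE, adjusted p = 8.75e-05). Its Control values were 26.8, 16.6 and 16.4 CPM, so that all 3 Control libraries lay above IgE+BSA as well. That difference, -0.55, did not pass the test (unadjusted p = 0.0451, adjusted p = 0.234 by edgeR). It was -0.32 (adjusted p = 0.0606) without Control replicate 1, and -0.99 without Control replicates 2 and 3, where it passed (adjusted p = 0.00031).

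Mrpl34, the counterpart of a small basic bacterial protein (chr8:71464959-71465747), was at 19.1, 19.7 and 21.4 CPM in IgE+BSA and at 29.9, 29.2 and 26.5 CPM with luteolin, a rise of 0.51 ± 0.0894 (adjusted p = 0.000272). Mrpl14, at the interface between subunits (chr17:45686322-45698495), rose by 0.46 ± 0.102 (adjusted p = 0.00215), from 22.0, 22.9 and 18 CPM to 29.1, 30.6 and 26.2 CPM. Mrpl40, which has no bacterial counterpart (chr16:18872018-18876862), rose by 0.45 ± 0.0974 (adjusted p = 0.00155), from 21.5, 26 and 24.4 CPM to 36, 33 and 29.2 CPM. In each of these genes the groups did not overlap. Mrpl12, the stalk protein that recruits translation factors, rose by 0.31 ± 0.0800 (adjusted p = 0.00576), and Mrpl58, a peptidyl-tRNA hydrolase built into the large subunit, by 0.39 ± 0.110 (adjusted p = 0.00946). Of the most abundant members Mrpl18 (0.21, adjusted p = 0.0402) and Mrpl54 (0.23, adjusted p = 0.0449) also passed the test, with overlapping libraries for Mrpl18. Mrpl18 missed the threshold in 7 and Mrpl54 in 8 of the 16 alternative settings, and Mrpl12 in 3. The smallest change was that of Mrpl47, at -0.02 ± 0.130 (adjusted p = 0.899), with 9.40 to 10.8 CPM in IgE+BSA and 9.39 to 11.2 CPM with luteolin.

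In the small subunit, Mrps21 (chr3:95862634-95871519) was at 33, 31.8 and 33.4 CPM in IgE+BSA and at 49.2, 41.8 and 42.8 CPM with luteolin. It rose by 0.45 ± 0.0799 (adjusted p = 0.000331). Mrps11, the counterpart of a bacterial platform protein (chr7:78783119-78792989), rose by 0.44 ± 0.107 (adjusted p = 0.00366), from 12.6, 13.8 and 12.1 CPM to 17.2, 18.5 and 16.5 CPM. Mrps35, a mitochondria-specific protein (chr6:147042764-147073991), rose by 0.42 ± 0.1 (adjusted p = 0.00327), from 20.3, 22.2 and 17.0 CPM to 25.9, 26.8 and 27.0 CPM. Groups did not overlap in any of the 3. Mrps23 (0.32 ± 0.0724, adjusted p = 0.00251) and Mrps12 (0.27 ± 0.0875, adjusted p = 0.0199) rose as well, though they missed the threshold in 3 and 6 of the 16 alternative settings. Mrps31 (0.13, adjusted p = 0.496) and Mrps34 (-0.0017 ± 0.205, adjusted p = 0.996) did not pass the test.

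**Figure D3:**
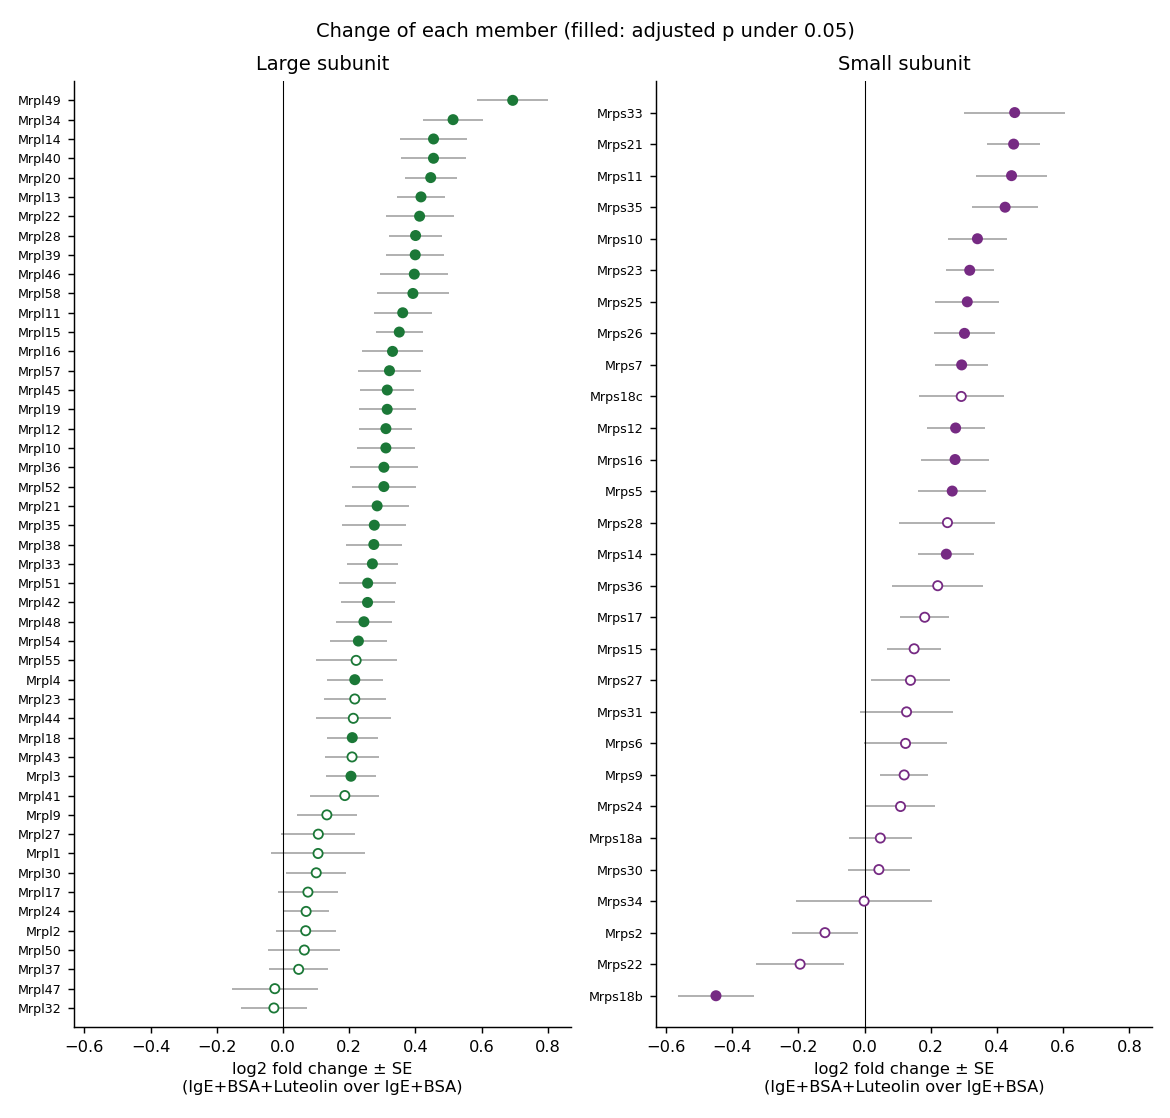
Log2 fold change of IgE+BSA+Luteolin over IgE+BSA (x axis) for each tested member, sorted by size, with large subunit genes on the left and small subunit genes on the right. Bars are SE and filled points passed an adjusted p of 0.05. Filled points lie to the right of 0 for 32 large and 13 small subunit genes, and Mrps18b, at -0.45, is the 1 filled point on the left.

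Mrps18b was the 1 member of 77 that fell under luteolin. It belongs to a family of 3 paralogs, Mrps18a, Mrps18b and Mrps18c, that share 1 bacterial ancestor, and of which Mrps18a sits in the large subunit in spite of its name. Mrps18b (chr17:35910379-35916389) was at 16.1, 14.4 and 14.2 CPM in IgE+BSA and at 11.2, 10.3 and 11.3 CPM with luteolin, a change of -0.45 ± 0.114 (adjusted p = 0.00513). Control libraries, at 12.4, 11.4 and 10.3 CPM, lay below all 3 IgE+BSA libraries, a difference of 0.39 that did not pass the test (unadjusted p = 0.0280, adjusted p = 0.187). It passed without Control replicate 1 (0.43, adjusted p = 0.0184) and not without Control replicates 2 and 3 (0.25, adjusted p = 0.226). The fall stayed past the threshold in all 16 alternative settings, with adjusted p between 0.000113 and 0.0485.

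The paralogs did not follow it. Mrps18a was at 29.2, 31.1 and 24.0 CPM in IgE+BSA and at 29.0, 27.7 and 30.4 CPM with luteolin (0.05 ± 0.0961, adjusted p = 0.725). Mrps18c was at 11.1, 10.3 and 10.3 CPM and at 15.1, 12 and 11.8 CPM, higher without overlap but short of the threshold (0.29 ± 0.128, adjusted p = 0.0801). It passed in 4 of the 16 alternative settings. Of the other names that mislead, Mrps30, also a large subunit protein by structure, was at 0.04 ± 0.0947 (adjusted p = 0.747). Mrps36, which belongs to the oxoglutarate dehydrogenase complex and not to the ribosome, was at 0.22 ± 0.138 (adjusted p = 0.217). With subunits assigned by structure, 32 of 50 large (64.0%) and 13 of 26 small subunit genes (50.0%) rose. By origin and structure, 19 of 30 large subunit genes with a bacterial counterpart and 13 of 19 without one rose. In the small subunit 8 of 16 and 5 of 9 rose, all against the 18.1% of all genes. Mrps18a, which did not pass, and Mrps18b, which fell, were left out of these classes, while Mrps18c was counted with a bacterial counterpart.

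Many members have a neighbour on the opposite strand that starts close by. Pairs were taken by the distance between starts alone, so genes that overlap at their starts were counted too. Mrps11 and Mrpl46, for example, share 173 exonic bases. Protein-coding genes on opposite strands with their start sites within 1000 bases were found for 33 of the 77 members (42.9%), 24 of 48 in the large subunit (50.0%) and 9 of 29 in the small subunit (31.0%), against 17.3% of the 10831 protein-coding genes tested. The start of Mrps18b lies 45 bases from that of Ppp1r10, which encodes a nuclear regulator of protein phosphatase. Ppp1r10 was at 69.1, 79.9 and 78.2 CPM in Control, at 143, 143 and 141 CPM in IgE+BSA and at 30.3, 28 and 31.1 CPM with luteolin. It was thus highest in IgE+BSA, as was Mrps18b, and fell by 2.25 on the log2 scale (SE 0.0635, adjusted p = 2.58e-14). Opposite-strand genes cover 30.5% of the exonic bases of Mrps18b, among them those of the antisense transcript Gm16279, which had 25 to 41 counts in IgE+BSA and 2 to 13 with luteolin, where Mrps18b had 289 to 356 and 234 to 254. The sources do not state whether reads were counted by strand, and the part of these neighbours in the counts of Mrps18b was not tested.

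Mrpl49 and Fau start 59 bases apart. Fau, a gene for a cytosolic ribosomal protein, was at 445 to 496 CPM in IgE+BSA and at 433 to 466 CPM with luteolin (-0.05 ± 0.0582, adjusted p = 0.552). Mrps11 and a large subunit gene, Mrpl46, have starts 412 bases apart and overlap on opposite strands. Mrpl46 rose by 0.40 ± 0.103 (adjusted p = 0.00605), from 12.5, 13.2 and 13.6 CPM to 16.5, 17.4 and 17.7 CPM. Of the 28 neighbours that were tested and are not members, 5 rose and 3 fell under luteolin, with a median change of -0.01, where 18.1% of all genes rose and 21.9% fell. Across these 28 pairs, members and neighbours had a Pearson correlation of 0.535 and a Spearman correlation of 0.0126. Without Mrps18b the Pearson correlation was 0.0114 over 27 pairs. Both genes of a pair come from the same libraries, so these are descriptions.

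**Figure D4:**
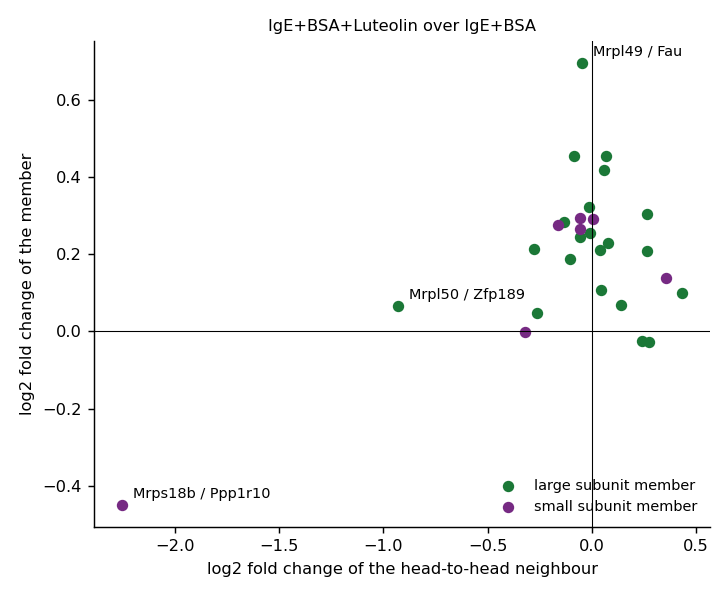
Log2 fold change of IgE+BSA+Luteolin over IgE+BSA for 28 members (y axis), coloured by subunit. The x axis gives that of the opposite-strand protein-coding gene whose start lies within 1000 bases of theirs. Mrps18b with Ppp1r10 stands alone at the lower left, while Mrpl49, at 0.69, has a neighbour at -0.05.

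Promoter windows of 300 bases, from 250 bases before the RefSeq start onward (GRCm38.p6), were at hand for 43 large and 26 small subunit genes. They were searched on both strands for exact matches. The NRF1 motif TGCGCNTGC was in 23.3% of large and 11.5% of small subunit promoters, against 9.81% of promoters of the protein-coding genes tested and 4.37% of all promoters in the table. CCGGAAGT, bound by ETS factors such as GABPA, was in 16.3% and 15.4%, against 9.32% and 4.0%. AAGATGGCG, bound by YY1, was in 9.30% and 15.4%, against 3.61% and 1.49%. The E-box CACGTG was in 9.30% and 3.85%, against 10.5% and 7.24%. GGGCGG, the GC box, was in 39.5% and 65.4%, against 65.9% and 35.9%, and TATAAA in 4.65% and 7.69%, against 6.47% and 14.2%. A match is a description of the letters and not a site.

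Of the 8 members described above with the largest changes without overlap, 4 per subunit, 5 held a match to a searched motif. Mrpl34 and Mrps21 held none, and Mrps35 had no promoter window to search. The 4 with the largest changes are shown, and Mrps11, with a YY1 and a GC box match, is not. Each is given as 30 bases upstream of the RefSeq start on the gene's own strand, 5′ to 3′. Capitals mark 2 matches to the GC box, written as CCGCCC where it lies on the other strand, and in Mrpl14 they overlap. All are from RefSeq on GRCm38.p6, at chr19:6057838-6057867 (minus strand), chr17:45686150-45686179 (plus), chr16:18876662-18876691 (minus) and chr17:35916478-35916507 (minus). The RefSeq start of Mrpl40 lies downstream of the GENCODE start used above, so its stretch falls inside the GENCODE gene. The stretch of Mrps18b, the gene that fell, held the same motif as those of the 3 genes that rose. In the whole windows, Mrps18b also had 2 NRF1 matches and Mrpl14 had 1, while Mrpl49 and Mrpl40 had 0.
Mrpl49: taCCGCCCaccgccgtcccagcCCGCCCct
Mrpl14: cccggctccGGGCGGGGCGGggctggggag
Mrpl40: ccgGGGCGGggctgcgtcggGGGCGGggcc
Mrps18b: gaccCCGCCCcttgacgcttCCGCCCttag

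Stimulated cells were next compared with untreated cells. No member passed the test between IgE+BSA and Control (0 of 48 and 0 of 29), against 3.27% of all genes tested. At an unadjusted p under 0.05, 1 large subunit gene (Mrpl49, lower) and 1 small subunit gene (Mrps18b, higher) differed. The share of all genes at that threshold was not computed. Of the members, 0 were called by limma and DESeq2 as well. Of all 11560 genes, limma called 274 higher and 120 lower, and DESeq2 599 and 628. The median changes were -0.04 and 0.04. The median SE of a member's log2 fold change was 0.224 here and 0.204 for IgE+BSA+Luteolin against Control, but 0.0934 in the luteolin comparison, so that changes as small as those under luteolin were not detectable against all 3 Control libraries. Between IgE+BSA+Luteolin and Control also 0 members passed, against 3.04% of all genes, with 0 at an unadjusted p under 0.05. By limma and DESeq2 0 members were called. Over all genes, limma called 35 higher and 285 lower in this comparison, and DESeq2 351 and 1028. Here the medians were 0.22 and 0.26, with 63 of 77 members above 0, against 51% of all genes. The 3 comparisons share libraries, so their values are given side by side and were not related to each other.

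The level in Control depended on the library. Control replicate 1 was above both other Control libraries in 47 of 48 large and 28 of 29 small subunit genes, against 43.4% of all genes tested. It was above all 3 IgE+BSA libraries in 47 and 25 (39.4% of all genes), and above all 3 luteolin libraries in 39 and 19 (37.1%). Control replicates 2 and 3, in contrast, were both below all 3 IgE+BSA libraries in 30 large and 17 small subunit genes (36.1% of all genes), and below all 3 luteolin libraries in 43 and 26 (37.2%).

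Leaving out Control replicate 1, 16 large and 9 small subunit genes were higher in IgE+BSA than in Control (22.6% of all genes were), with medians of 0.18 and 0.24. In IgE+BSA+Luteolin 38 and 23 were higher (29.9% of all genes), with medians of 0.52 and 0.46. Leaving out Control replicates 2 and 3 instead turned the direction. Against the 1 library left, which was assumed to vary like the others, 39 large and 19 small subunit genes were lower in IgE+BSA (19.2% of all genes), with medians of -0.49 and -0.40. In IgE+BSA+Luteolin 6 and 5 were lower (9.55% of all genes), with medians of -0.18 and -0.14. The direction of the medians against Control thus changed with the Control libraries used. By the sign of the change alone, with each of the 3 choices 13 of 77 members, Mrpl49 among them, were below Control in IgE+BSA. Mrps18b was the 1 member above it with each. In IgE+BSA+Luteolin, 3 were below Control with each choice and 4 above, Mrpl34 among the 4. The share of all genes that kept their sign was not computed and the 3 choices share libraries, so these counts are descriptions.

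**Figure D5:**
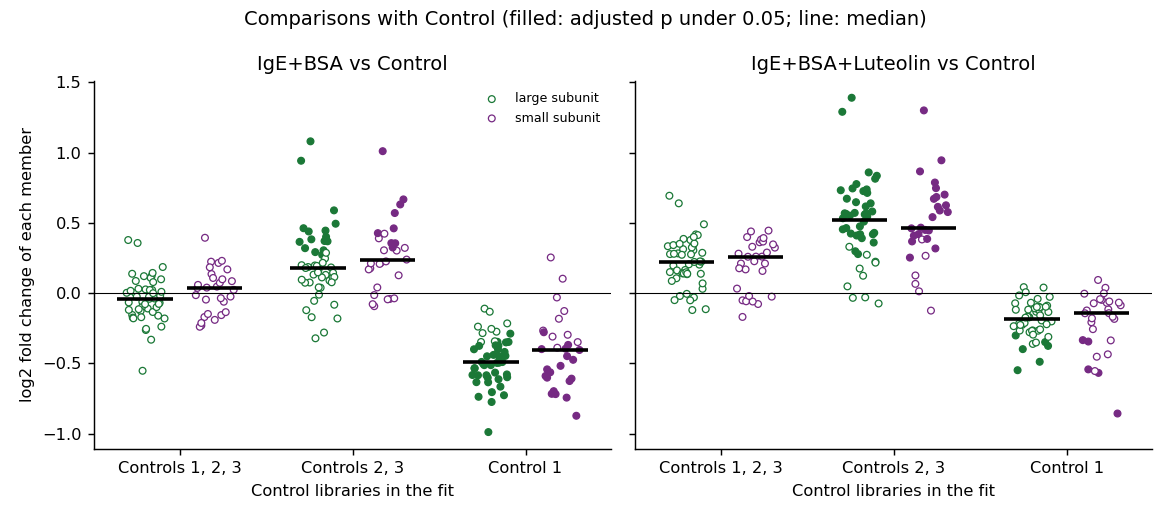
Log2 fold change of each member against Control (y axis) with 3 choices of Control libraries (x axis), for IgE+BSA (left) and IgE+BSA+Luteolin (right). Green points are large and purple points small subunit genes, filled where the adjusted p was under 0.05, and lines are medians. The points lie mostly above 0 with Controls 2 and 3 and mostly below 0 with Control 1.

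Other genes of mitochondrial translation were examined beside the members. MRPs whose symbols are neither Mrpl nor Mrps rose in 4 of 5 cases under luteolin compared with IgE+BSA, with a median of 0.29. Dap3, a GTP-binding small subunit protein, rose by 0.36 ± 0.0947 (adjusted p = 0.00715), Ptcd3, at the messenger RNA entrance, by 0.31 ± 0.0763 (adjusted p = 0.00415), Aurkaip1 by 0.29 ± 0.0813 (adjusted p = 0.00988) and Chchd1 by 0.22 ± 0.0814 (adjusted p = 0.0420). Gadd45gip1, of the large subunit, was at 0.16 (adjusted p = 0.408). Of 13 translation factors 1 rose, Mtrf1l, a peptide release factor (0.39 ± 0.138, adjusted p = 0.0349). All 13 were above 0, against 52.3% of all genes, and their median was 0.15. The share that rose was 7.69%, below the 18.1% of all genes.

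Of 23 assembly factors 3 rose (13%) and 1 fell, against 18.1% and 21.9% of all genes. Rpusd4, which modifies the large subunit RNA, rose by 0.36 (adjusted p = 0.0203), and Rbfa, which matures the small subunit, by 0.33 (adjusted p = 0.00258). Ddx28, an RNA helicase of large subunit assembly, was at 15, 13.8 and 13.6 CPM in IgE+BSA and at 8.21, 6.03 and 7.11 CPM with luteolin, and fell by 0.99 (SE 0.137, adjusted p = 2.6e-05). Of 11 expression regulators tested 4 rose and 4 fell. Myc, known to drive ribosome production, fell by 1.08 (SE 0.0791, adjusted p = 8.98e-09), from 57.3, 66.8 and 58.3 CPM to 28.7, 27.5 and 29.9 CPM. Gabpb1, the partner of GABPA, fell by 0.46 (adjusted p = 0.000102) and Pprc1, a coactivator of NRF1, by 0.42 (adjusted p = 0.000654). Gabpa also fell (-0.23, adjusted p = 0.0266). The 4 that rose were Tfam, which packages mitochondrial DNA (0.42, adjusted p = 0.000947), the nuclear receptor Esrra (0.38, adjusted p = 0.00229), Polrmt, the mitochondrial RNA polymerase (0.35, adjusted p = 0.0036), and Yy1 (0.22, adjusted p = 0.0146). Gabpa and these 4 are named after their values were seen.

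Against Control, 3 of 23 assembly factors were lower in IgE+BSA (1.02% of all genes were) and 2 in IgE+BSA+Luteolin (2.75%), beside 1 regulator (Myc), and 0 genes of these lists were higher. The other MRPs and the translation factors had 0 calls in either direction. Without Control replicate 1, 10 assembly factors were lower in IgE+BSA (22.4% of all genes) and 6 in IgE+BSA+Luteolin (30.1%), with 2 and 5 higher. Without Control replicates 2 and 3, 11 were lower in IgE+BSA (19.2% of all genes) and 7 in IgE+BSA+Luteolin (9.55%), and 0 were higher (23.1% and 11.6%). For the other MRPs, without Control replicate 1, 1 of 5 was higher in IgE+BSA and 5 of 5 in IgE+BSA+Luteolin, and without Control replicates 2 and 3, 2 were lower in IgE+BSA and 0 were called in IgE+BSA+Luteolin. Without Control replicate 1, translation factors had 3 higher and 3 lower of 13 in IgE+BSA and 4 higher and 1 lower in IgE+BSA+Luteolin, and regulators 3 higher and 2 lower of 11, and 4 higher and 3 lower. Of all genes, 22.6% were higher and 22.4% lower in the first comparison, and 29.9% and 30.1% in the second. Without Control replicates 2 and 3, translation factors had 0 higher and 2 lower, and 0 higher and 1 lower, and regulators 2 higher and 2 lower in both.

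For scale, 59 of 75 nuclear genes for oxidative phosphorylation subunits rose under luteolin (78.7%) and 0 fell, with a median of 0.25, near that of the MRPs. Of 80 cytosolic ribosomal protein genes 5 rose and 29 fell, with a median of -0.11. Of all genes, 18.1% rose and 21.9% fell. The 37 genes encoded in mitochondrial DNA had 0 counts throughout, so the mitochondrial ribosomal RNAs and the products of the ribosome were not measured. The summed mast cell markers moved with the luteolin comparison, at 58400 to 65400 CPM in IgE+BSA and 70300 to 81500 CPM with luteolin, as did the neutrophil markers given above. The 2 basophil markers summed to 805 to 888 CPM in IgE+BSA and 909 to 1020 CPM with luteolin, Prss34 without overlap (513 to 558 against 581 to 661 CPM) and Mcpt8 with overlap (292 to 330 against 328 to 368 CPM). The 2 megakaryocyte markers, of which Itga2b made up nearly the whole, summed to 1740 to 1820 and 1870 to 1960 CPM, and the 4 macrophage markers overlapped (234 to 257 and 248 to 268 CPM). Singly, 6 of the 10 mast cell markers, among them Cpa3 and Tpsb2, which make up most of the sum, were higher with luteolin without overlap. Kit, Hdc and Mitf were lower without overlap, Hdc at 854, 716 and 966 CPM in IgE+BSA and 360, 390 and 385 CPM with luteolin, and Gata2 overlapped. Their part in the result was not tested.

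Change under luteolin also went with gene length. Over all genes with a length the Pearson correlation of the log2 fold change with log length was -0.14 (Spearman -0.32, 11541 genes of the same libraries), and over the 77 members it was -0.17. Members under 1 kb had a median change of 0.33 against 0.21 in other genes of that length, and those over 4 kb 0.25 against -0.07. Leaving out IgE+BSA replicate 1, 20 large and 6 small subunit genes rose (11.5% of all genes), and leaving out IgE+BSA replicate 3, 22 and 6 (12.6%). Leaving out IgE+BSA+Luteolin replicate 1, 17 and 9 rose (10.5%), and leaving out replicate 2, 18 and 6 (10.7%). Mrps18b fell in each of these fits.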

How the data were processed

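Raw read counts per Ensembl gene were deposited by the authors, who had made them from TruSeq Stranded mRNA libraries with HTStream and STAR (2.7.0f in the submitters' processing notes) on mm10. The column names point to htseq-count. The annotation release, strand setting and handling of multiple matches are not given in the sources used here. Of 47643 gene identifiers, 47224 were matched to GENCODE M21. The members, gene lists and tests were chosen with earlier results of these data known.

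The tests used edgeR 4.0.16 under R 4.3.3 (quasi-likelihood test, TMM factors, two-sided, Benjamini-Hochberg adjustment, threshold 0.05) on the 6 libraries of each comparison, for genes with a median CPM above 1. CPM values are TMM-normalized. limma 3.58.1, the study's method, DESeq2 1.42.0, other scalings, no filter, all 9 libraries in 1 fit, the replicate number as a block, length offsets and each library left out were alternatives. Fits without Control replicates 2 and 3, and those of other gene lists without Control replicate 1, were added after the data were seen. Lists hold protein-coding genes only. Replicates may be technical, so p-values measure only the spread between these samples. All replicate pairs differed beyond sampling noise (chi-square per degree of freedom at least 4.05). The method was tested on simulated data. Exon lengths are unions of annotated exons.

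Members named are the 4 per subunit with the largest change past the threshold without overlap between groups, those changed against their subunit or least, the 3 most and 2 least abundant per subunit, those filtered out, and 8 named for their function. From other lists, the 5 MRPs and up to 3 changed genes each are named, and the neighbours shown were chosen by position.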

Additional observations from a re-analysis of the deposited data

How the results depend on the processing

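In the luteolin comparison, large and small subunit calls (32 and 14) stayed within 1.5 times under limma, DESeq2, each scaling, no filter, assignment by structure and the replicate block. With all 9 libraries in 1 fit they were 0 and 1 (176 of all genes higher and 917 lower). With length offsets they were 18 and 9 (1757 and 2313), and with length offsets and the block 21 in the large subunit (2168 and 2592). Leaving out 1 library gave 17 to 33 and 7 to 17, where 1210 to 2305 of all genes were higher and 2032 to 2777 lower. Deviations of same-numbered libraries of IgE+BSA and IgE+BSA+Luteolin had correlations of -0.0236, 0.175 and 0.283, against -0.28 to 0.149 for unlike numbers. So few values cannot decide whether the numbers mark pairs, and the main fit did not pair them. With the replicate block 34 and 16 members were called, but calls rose over all genes too, to 2639 higher and 2943 lower from 2097 and 2527. Comparisons with Control called 0 members in every planned setting except without Control replicate 1, so that leaving out 1 library gave 0 to 16 and 0 to 9 for IgE+BSA, and 0 to 38 and 0 to 23 for IgE+BSA+Luteolin. Without Control replicates 2 and 3 the numbers were 39 and 19, and 6 and 5. The cause of these differences was not tested, except that smaller fits hold fewer samples. No called member among those refitted in the luteolin comparison changed sign, and Mrpl46, named for its position, was not refitted. Scaling by library size alone moved the median of all genes from 0.02 to 0.13 and the members' medians to 0.38 and 0.36, and called 3856 genes higher and 1767 lower in place of 2097 and 2527 (upper-quartile factors, 3267 and 2019). For IgE+BSA against Control it moved the median of all genes to -0.15, with 173 genes higher and 295 lower in place of 260 and 118 (upper-quartile factors, 199 and 181). Depth limits the lowest members most, as Mrps34 had 25 counts in Control replicate 2.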
